A study of Mus musculus with 6 samples.

Results

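Ccn1, Ccn2 and Ankrd1 were 3 of the 8565 named genes measured in osteoblastic cells exposed to fluid flow, and they were represented by 7 of the 13182 named probes (3 for Ccn1, 2 for Ccn2 and 2 for Ankrd1). The 3 genes were selected on their flow/no flow ratios in these same arrays, so those ratios describe the genes and carry no test. Every probe that the platform annotation assigns to the 3 symbols was taken. All 7 probes were detected on all 6 arrays.

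The cells were MC3T3-E1, a mouse line of osteoblast precursors from the skull of newborn mice, of which 1 subclone was used. Flow was made by orbital shaking of the well plates. In rest-inserted flow the cells had 5 min of flow and then 10 min of rest, 4 times over, so that 20 of the 60 min were flow. Continuous flow lasted the whole 60 min, and the controls had no flow. RNA was collected immediately following the regimen (0 h) or 1 h later, pooled from 3 experiments, and each of the 6 conditions was hybridized to 1 Illumina MouseWG-6 v2.0 array. Because a pool has no spread between experiments, no condition has a replicate array. In a bulk sample, fewer cells of a kind and less RNA per cell cannot be told apart.

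The number of detected probes was 13472 to 14426 per array, and the median background-subtracted signal of detected probes was 105 to 123. A gene was counted as measured when it had a named probe detected on at least 1 array. Of 10 osteoblast markers, 6 were measured and 5 were detected on all 6 arrays (Col1a1, Col1a2, Sparc, Sp7 and Ibsp). Alpl was detected on 2 arrays, and Runx2, Spp1, Bglap and Dlx5 were not measured. Of 11 muscle markers 1 was measured (Myog, on 2 arrays), of 8 endothelial markers 0, and of 7 macrophage markers 3, of which 1 (Cd14) was detected on all arrays.

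YAP and its relative TAZ are co-activators that enter the nucleus when cells spread, build actin tension or escape the Hippo kinases, and there they bind TEAD transcription factors at the genes they switch on. Ccn1 and Ccn2, long known as Cyr61 and Ctgf, encode secreted matricellular proteins that bind integrins and heparan sulfate and are made early after serum, TGF-beta or mechanical stimulation. Ankrd1 encodes an ankyrin repeat protein found in the nucleus and, in heart and skeletal muscle, at the titin spring of the sarcomere. All 3 genes are widely used as readouts of YAP activity, and they also respond to serum response factor and to other signals.

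Because the 3 genes are known as targets reached through TEAD, the 250 bases before the start of Ccn1 and of Ankrd1 are shown (RefSeq, GRCm38.p6, both on the minus strand, Ccn1 at chr3:145649986-145650235 and Ankrd1 at chr19:36119845-36120094), 5′ to 3′, with each match to the core TEAD letters GGAATG on either strand in capitals.
Ccn1: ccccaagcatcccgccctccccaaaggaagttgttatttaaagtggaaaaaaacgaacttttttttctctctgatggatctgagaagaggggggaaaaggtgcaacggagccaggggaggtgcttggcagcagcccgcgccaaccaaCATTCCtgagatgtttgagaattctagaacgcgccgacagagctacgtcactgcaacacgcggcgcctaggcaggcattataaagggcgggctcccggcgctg
Ankrd1: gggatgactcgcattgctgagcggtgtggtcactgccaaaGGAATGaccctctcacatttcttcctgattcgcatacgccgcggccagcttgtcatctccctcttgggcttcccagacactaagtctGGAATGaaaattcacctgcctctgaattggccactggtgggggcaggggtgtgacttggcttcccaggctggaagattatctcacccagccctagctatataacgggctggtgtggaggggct

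The Ccn1 window held the TEAD letters 1 time, on the antisense strand at -103 to -98 relative to the start, and the Ankrd1 window held them 2 times, on the sense strand at -210 to -205 and at -123 to -118. The letters occurred in 12.6% of the 27025 windows of the same length, 1 per gene. A match describes the sequence, and whether TEAD binds there was not tested. TATAAA, the TATA motif, was found in the Ccn1 window at -25 to -20 and in 3504 of all windows. Neither window held the AP-1 letters TGANTCA (6.87% of windows) or a CArG box, the motif of serum response factor (1.40%), with both strands searched for each motif and no overlap between the matches found. Of 19 other YAP target genes 13 had a window and 4 of these held the TEAD letters.

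Immediately following flow, every probe of the 3 genes was highest with continuous flow, intermediate with rest-inserted flow and lowest without flow. Ccn2 stood furthest from no flow, at about 3.6-fold with continuous flow and 2.0-fold with rest-inserted flow on its brighter probe, and Ccn1 and Ankrd1 stood at about 2-fold with continuous flow. Probes of a gene are numbered from the brightest (ILMN_2794645, ILMN_2710253 and ILMN_1235571 for Ccn1, ILMN_2909150 and ILMN_1238215 for Ccn2, ILMN_2950286 and ILMN_2625451 for Ankrd1), and all signals given are quantile normalized.

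The signal of Ccn2 on its first probe was 2120.4 with rest-inserted flow and 3828 with continuous flow, against 1054 without flow. On the second probe it was 929 with rest-inserted flow and 1647 with continuous flow, against 506 without flow. The first probe of Ankrd1 had 2176 with rest-inserted flow and 3181 with continuous flow, against 1392 without flow. In both genes the continuous flow array was the highest of the 3 on each probe, and the rest-inserted array lay between it and no flow.

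The second probe of Ankrd1 had 493 with rest-inserted flow and 701 with continuous flow, against 278 without flow. Ccn1 had 581 with rest-inserted flow and 679 with continuous flow, against 336 without flow, on its first probe, and 549.6 and 727, against 333, on its second. Its dimmest probe had 100.1 with rest-inserted flow and 120.4 with continuous flow, against 62.3 without flow. This order of continuous, rest-inserted and no flow was shared by 7 of the 7 probes, and 16.8% of all named probes had it. The genes were chosen on their flow/no flow ratios and their probes share the same arrays, so nothing is read from this count.

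**Figure D1:**
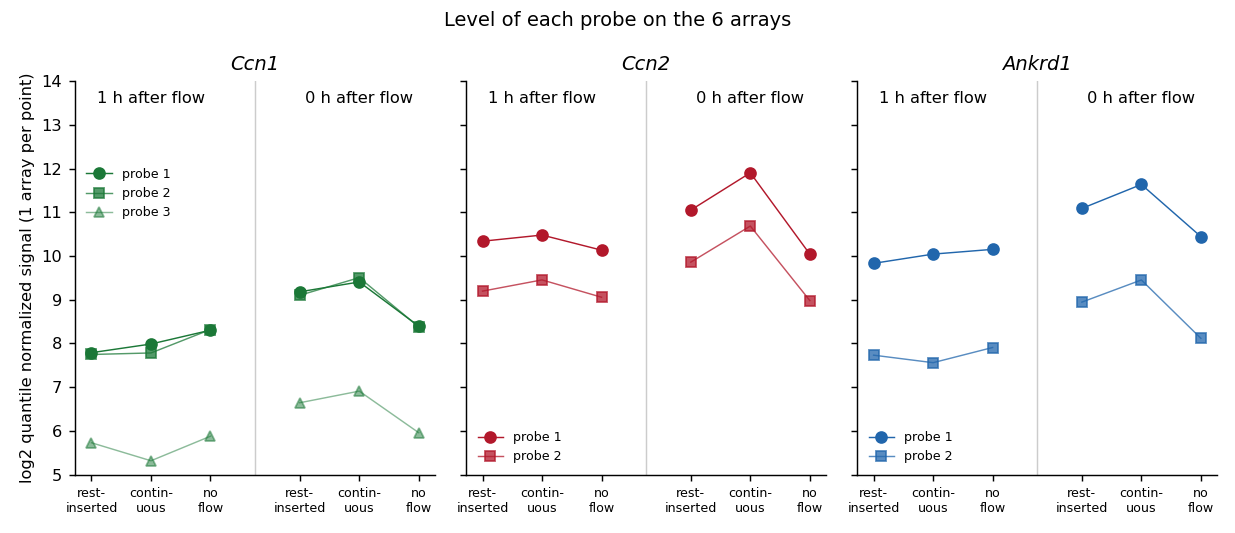
Log2 quantile normalized signal (vertical axis) of each probe of Ccn1, Ccn2 and Ankrd1 on the 6 arrays, with rest-inserted, continuous and no flow side by side at 1 h and at 0 h after flow, 1 array per point and lines joining the points of a probe. At 0 h all 7 probes peak with continuous flow, while at 1 h the points of a probe lie close together.

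As log2 flow/no flow ratios at 0 h, rest-inserted flow gave 1.01 and 0.88 for the probes of Ccn2, 0.64 and 0.83 for those of Ankrd1, and 0.79, 0.72 and 0.69 for those of Ccn1. Continuous flow gave 1.86 and 1.70 for Ccn2, 1.19 and 1.33 for Ankrd1, and 1.01, 1.13 and 0.95 for Ccn1. Both sets of ratios share the no flow array as their denominator. The central 95% of the probes detected on all 6 arrays lay between -0.43 and 0.44 for rest-inserted flow and between -0.43 and 0.46 for continuous flow, and all 7 probes lay above these ranges in both. Among the 13182 named probes ordered by the continuous flow ratio, the probes of Ccn2 were in places 1 and 2, those of Ankrd1 in places 27 and 11, and those of Ccn1 in places 72, 40 and 91. By the rest-inserted ratio the places were further down, 52 and 114 for Ccn2, 311 and 150 for Ankrd1, and 176, 221 and 250 for Ccn1.

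With 1 array per condition, a gene was counted as higher or lower when its brightest probe differed by at least 1.5-fold. At 0 h rest-inserted flow gave 3 of 3 genes higher, against 3% of all named probes, and 0 lower, against 3.24%. Continuous flow also gave 3 of 3 higher, against 3.38%, and 0 lower, against 3.27%. These ratios chose the genes, so nothing is read from the counts. Both kinds of flow together gave at least 1.5-fold higher signal for 157 named probes (1.19%). All 7 probes of the 3 genes were among them, from which nothing is read either.

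**Figure D2:**
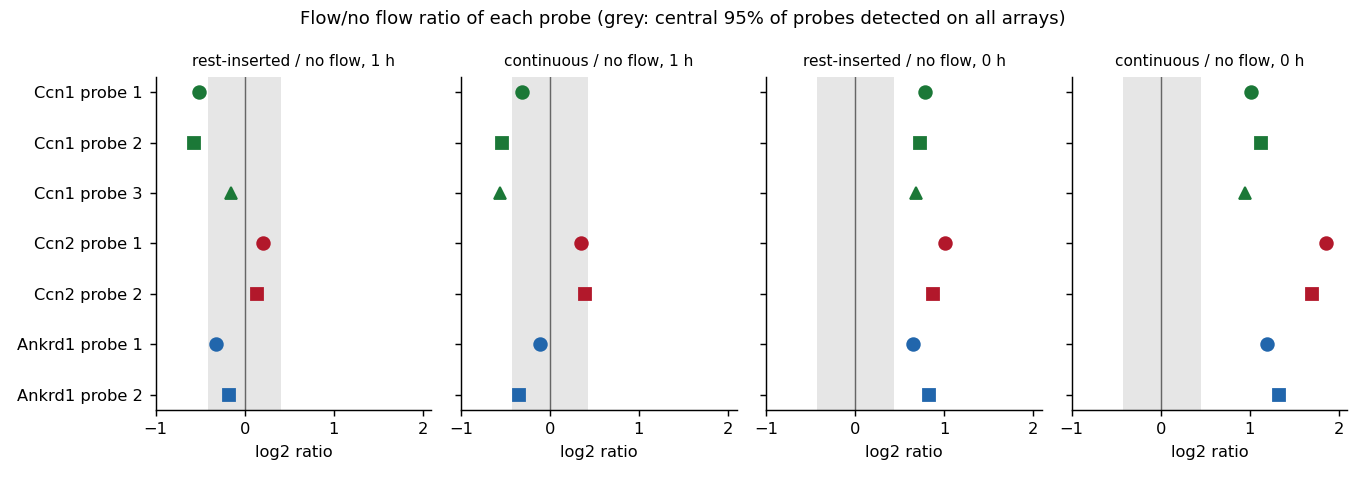
Log2 flow/no flow ratio (horizontal axis) of each of the 7 probes, from left to right for rest-inserted and continuous flow at 1 h and for rest-inserted and continuous flow at 0 h, with the central 95% of probes detected on all 6 arrays in grey. At 0 h every probe lies to the right of the grey band, and at 1 h most lie inside it.

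Rest-inserted and continuous flow differed most for Ccn2 among the 3 genes. At 0 h the signal of Ccn2 with rest-inserted flow was 0.554 and 0.564 of that with continuous flow on the 2 probes (log2 differences of -0.85 and -0.83), with 117 and 140 of the named probes lower still. For Ankrd1 the rest-inserted over continuous differences were -0.55 and -0.51, and for Ccn1 -0.23, -0.40 and -0.27. The central 95% of probes detected on all arrays was -0.38 to 0.39 here. Both probes of Ccn2, both of Ankrd1 and the second of Ccn1 therefore lay below it, and the other 2 probes of Ccn1 lay inside it. By the 1.5-fold count, 1 of 3 genes was lower with rest-inserted than with continuous flow (Ccn2), against 2.74% of all probes, and 0 were higher, against 2.58%.

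Expressed as signal in excess of no flow, rest-inserted flow gave 38.4% and 37.1% of the excess seen with continuous flow for Ccn2, 43.8% and 50.9% for Ankrd1, and 71.3%, 55.0% and 65.1% for Ccn1. The share of the excess signal was thus lowest on both probes of Ccn2 and highest on the probes of Ccn1. As a share of the continuous flow log2 ratio, rest-inserted flow gave 54.2% and 51.5% for Ccn2 and 54.0% and 62.0% for Ankrd1. For Ccn1 it gave 77.7%, 64.2% and 72.0%. On the log2 scale the first probes of Ccn2 and Ankrd1 were thus nearly alike. With 1 array per condition these differences between the genes were not tested.

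At 1 h post-flow the 3 genes no longer shared a direction. Ccn2 was still slightly above no flow on both flow arrays, while Ccn1 and Ankrd1 were below no flow with both kinds of flow on every probe. The first probe of Ccn2 had 1295 with rest-inserted flow and 1428 with continuous flow, against 1123 without flow, and the second had 587 and 701, against 533.

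The first probe of Ccn1 had 221 with rest-inserted flow and 254 with continuous flow, against 316 without flow. Its second probe had 215 with rest-inserted flow and 220.4 with continuous flow, against 320 without flow, and its dimmest 53.1 and 39.9, against 58.9. No flow was the highest of the 3 arrays on each Ccn1 probe, and the order of the 2 flow arrays was not the same on the dimmest probe as on the other 2. Ankrd1 had 911 with rest-inserted flow and 1055 with continuous flow, against 1138 without flow, on its first probe, and 213 and 189, against 240.2, on its second. Its 2 probes, too, put the flow arrays in opposite order, with no flow highest on both.

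The log2 ratios at 1 h were 0.20 and 0.14 for Ccn2, -0.32 and -0.18 for Ankrd1, and -0.51, -0.57 and -0.15 for Ccn1 with rest-inserted flow. With continuous flow they were 0.35 and 0.40 for Ccn2, -0.11 and -0.35 for Ankrd1, and -0.32, -0.54 and -0.56 for Ccn1. The central 95% of probes detected on all arrays lay between -0.41 and 0.41 for rest-inserted flow and between -0.42 and 0.43 for continuous flow. Outside it were the first and second probes of Ccn1 with rest-inserted flow and the second and dimmest with continuous flow, and all probes of Ccn2 and Ankrd1 were inside. By the 1.5-fold count 0 of 3 genes were higher and 0 lower with rest-inserted flow, against 3.18% and 2.88% of all probes, and likewise 0 and 0 with continuous flow, against 3.35% and 3.22%. Rest-inserted over continuous flow at 1 h gave -0.14 and -0.26 for Ccn2, -0.21 and 0.17 for Ankrd1, and -0.20, -0.04 and 0.41 for Ccn1, with 0 genes counted as higher (2.93% of all probes) and 0 as lower (2.88%). The sign of that difference was the same on both probes of Ccn2 and was not the same on all probes of Ankrd1 or of Ccn1.

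**Figure D3:**
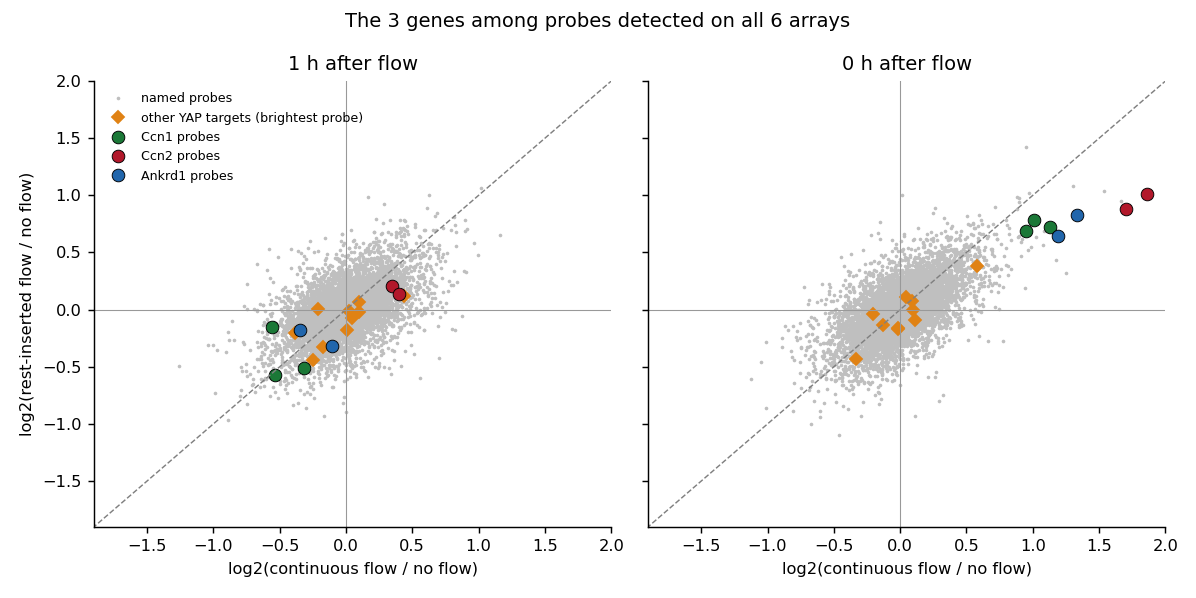
Log2 ratio of rest-inserted to no flow (vertical axis) against that of continuous to no flow (horizontal axis) at 1 h and at 0 h, for named probes detected on all 6 arrays (grey), the other YAP targets (orange) and the 3 genes (coloured circles), with a dashed line of equal ratios. Both axes share the no flow array of the time point. At 0 h the 7 probes lie at the upper right below the line, and at 1 h they lie among the other probes.

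Within the same kind of flow, all 3 genes were lower at 1 h than at 0 h, and no flow cells differed far less between the time points. With rest-inserted flow the 1 h over 0 h log2 difference was -0.71 and -0.66 for Ccn2, -1.26 and -1.21 for Ankrd1, and -1.39, -1.35 and -0.91 for Ccn1. With continuous flow it was -1.42 and -1.23 for Ccn2, -1.59 and -1.89 for Ankrd1, and -1.42, -1.72 and -1.59 for Ccn1. The second probe of Ankrd1 had the lowest continuous flow difference of all 13182 named probes, and the 7 probes were all among the lowest 37. Without flow the differences were 0.09 and 0.08 for Ccn2, -0.29 and -0.21 for Ankrd1, and -0.09, -0.06 and -0.08 for Ccn1, each inside the central 95% of -0.46 to 0.46.

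Over all 6 arrays, the level of Ccn1 and of Ankrd1 on every probe ran from continuous flow at 0 h, through rest-inserted flow at 0 h and the no flow arrays at 0 h and 1 h, down to the flow arrays at 1 h. Ccn2 instead ran from continuous flow at 0 h and rest-inserted flow at 0 h through continuous and rest-inserted flow at 1 h to no flow at 1 h and at 0 h on both probes. Set against the no flow array of 0 h, rest-inserted flow at 1 h was 0.30 higher on the log2 scale for the first probe of Ccn2, and -0.60 and -0.61 for the first probes of Ccn1 and Ankrd1. Continuous flow at 1 h gave 0.44, -0.41 and -0.40 for the same probes. The neighbouring no flow arrays differed by 0.06 to 0.29 on these 7 probes, and without replicate arrays it was not tested which neighbours in the order differ.

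Different probes of one gene gave similar ratios. Over the 27 combinations of gene and comparison (9 comparisons of flow or time), the range between the probes of a gene was 0.015 to 0.61 on the log2 scale and was under 0.2 in 19. The widest range was that of Ccn1 in rest-inserted over continuous flow at 1 h, where the dimmest probe gave 0.41 and the others -0.20 and -0.04. The median range was 0.065 for Ccn2, 0.14 for Ankrd1 and 0.25 for Ccn1. Pearson's r between probes of a gene over the 6 arrays was 0.949 to 0.998, a description of probes that share the same RNA and hybridizations. Agreement between probes measures the noise of hybridization and not the spread between experiments.

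The time points are the only repeats of a flow condition, so the mean of both was also fitted over all named probes (limma, flow and time point as terms). Since the effect of flow was not alike at the time points, the standard errors of the 3 genes were wide. With rest-inserted flow the fitted log2 difference was 0.61 ± 0.38 (SE, 2 flow arrays against 2 no flow arrays) for the first probe of Ccn2, 0.16 ± 0.34 for that of Ankrd1 and 0.14 ± 0.38 for that of Ccn1. With continuous flow it was 1.10 ± 0.38 for Ccn2, 0.54 ± 0.34 for Ankrd1 and 0.35 ± 0.38 for Ccn1. At a Benjamini-Hochberg adjusted p under 0.05, limma called 0 of 13182 probes (0%) for rest-inserted flow, for continuous flow and for rest-inserted over continuous flow. In the same order, an unadjusted p under 0.05 was reached by 711 (5.39%), 804 (6.1%) and 625 (4.74%) probes. When the variance prior followed the intensity, 6 probes were called for continuous flow and 0 for the other comparisons. Both probes of Ccn2 were among the 6, but these ratios chose the gene, so nothing is read from their call.

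Of 19 further genes known as direct YAP targets, 11 were measured, 10 of them detected on every array. At 0 h, 0 of the 11 were higher by 1.5-fold, against 3% of all named probes with rest-inserted flow and 3.38% with continuous flow, and 0 were lower, against 3.24% and 3.27%. With so few genes, a count of 0 is near these shares. The median log2 ratio was -0.04 with rest-inserted flow and -0.02 with continuous flow, against 0 over all named probes for both. Crim1, a membrane protein that holds back BMPs, had the highest mean of both ratios among the 10 detected on all arrays, with 0.38 with rest-inserted flow and 0.58 with continuous flow. Its signal at 0 h lay near the floor of 10, at 16.5 without flow, 21.4 with rest-inserted flow and 24.6 with continuous flow. Without flow it was 0.41 higher at 1 h than at 0 h on the log2 scale, and its ratios at 1 h were -0.01 and 0.02. Tgfb2, a TGF-beta ligand, had -0.44 and -0.34, Ptpn14, a phosphatase that binds YAP, -0.14 and -0.13, and Fjx1, a relative of the fly gene four-jointed, -0.04 and -0.21. Without flow, Tgfb2 was 0.55 lower at 1 h than at 0 h on the log2 scale, a larger difference than either ratio. Its ratios at 1 h were 0.12 with rest-inserted flow and 0.44 with continuous flow. At 1 h the median was -0.02 with rest-inserted flow and 0.01 with continuous flow, and 0 of the 11 passed 1.5-fold in either direction, against 2.88% to 3.35% of all named probes. Nt5e was the 1 gene past 1.5-fold between the kinds of flow, at 0.98 for rest-inserted over continuous flow at 0 h, against 2.58% of all named probes. It was detected on 1 array and is named after its value was seen. Limma called 0 of the 11 genes for each of the 3 contrasts. For rest-inserted over continuous flow, 1 had an unadjusted p under 0.05, against 4.74% of all named probes.

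**Figure D4:**
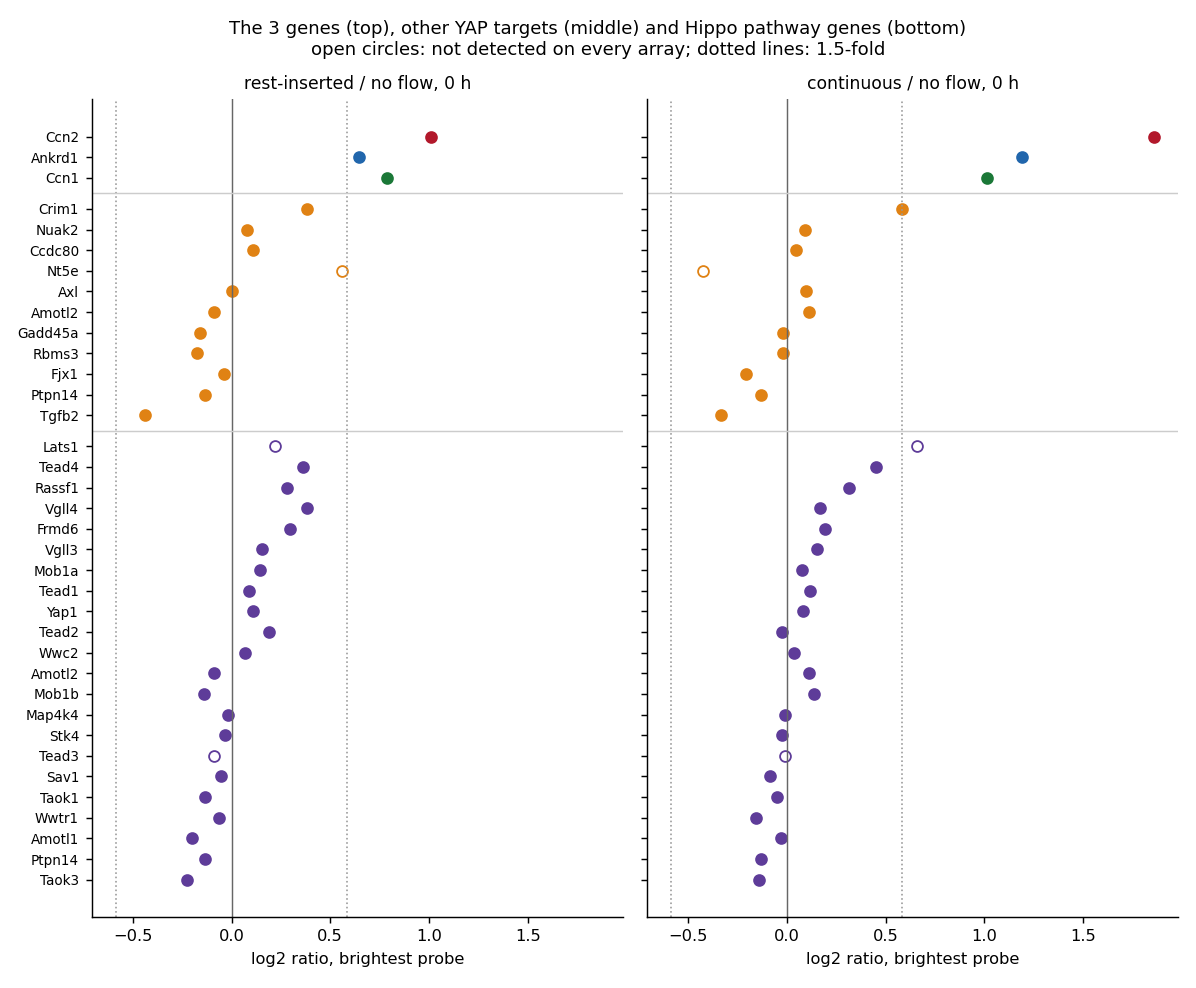
Log2 ratio of rest-inserted (left) and continuous flow (right) to no flow at 0 h for the brightest probe of the 3 genes (top), the other YAP targets (middle) and genes of the Hippo pathway (bottom), with 1.5-fold as dotted lines and open circles for genes not detected on every array. The 3 genes lie past the right dotted line in both panels, and of the other genes Lats1 alone does so, with continuous flow.

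Of 30 genes of the Hippo pathway, which sets where YAP is in the cell, 22 were measured, 20 of them detected on every array. The co-activator Yap1 had log2 ratios at 0 h of 0.11 with rest-inserted flow and 0.08 with continuous flow, and Wwtr1, which encodes TAZ, had -0.06 and -0.16. Of the DNA-binding partners, Tead1 had 0.09 and 0.12, Tead2 0.19 and -0.03, and Tead4 0.36 and 0.45, while Tead3 was detected on 2 arrays. Tead4 was thus the highest of the 3 TEAD genes detected on all arrays with each kind of flow, under 1.5-fold in both. Without flow, however, Tead4 was 0.71 higher at 1 h than at 0 h on the log2 scale, more than either ratio. At 1 h its ratios were -0.26 with rest-inserted flow and 0.12 with continuous flow. Rassf1, a scaffold of the kinase cascade, had 0.28 and 0.31, Vgll4, a rival of YAP for TEAD, 0.38 and 0.17, and Frmd6, an upstream FERM protein, 0.30 and 0.19. By 1.5-fold, 0 of 22 genes were higher with rest-inserted flow, against 3% of all named probes, and 1 with continuous flow, against 3.38%, so both counts were near the shares of all probes. The 1 gene was Lats1, a kinase that inhibits YAP, at 0.66. Lats1 was detected on 3 arrays and is named after its value was seen. At 1 h 0 of 22 passed 1.5-fold with either kind of flow, against 2.88% to 3.35% of all named probes in each direction.

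Among 6 other CCN and muscle ankyrin repeat genes, 3 were measured. Ccn4 had 0 h ratios of -0.07 with rest-inserted flow and -0.19 with continuous flow, and Ccn5 had 0.10 and -0.06. Ccn3 was detected on 1 array, so its ratios of 0.62 and 0.83 at 1 h and of -0.65 and -0.65 at 0 h lie near the floor of the measurement. Of 11 receptors and binding partners of CCN proteins, 7 were measured, all on all 6 arrays, and 0 passed 1.5-fold at 0 h, against 3% to 3.38% of all named probes in each direction. Itga5, the alpha chain of the fibronectin receptor, had 0.47 with rest-inserted flow and 0.51 with continuous flow, Itgav, an integrin chain that binds CCN1 and CCN2, 0.25 and 0.12, and Sdc4, a heparan sulfate proteoglycan, 0.06 and 0.15. Lrp1, an endocytic receptor for CCN2, had 0.43 and 0.75 at 1 h and -0.34 and -0.40 at 0 h. At 1 h it was the 1 receptor past 1.5-fold with continuous flow, against 3.35% of all named probes higher by 1.5-fold. Lrp1 was dim, at 34.5 without flow at 1 h, and its 1 h over 0 h log2 difference without flow was -0.63. With an offset of 16 in place of the floor, the receptor count with continuous flow at 1 h was 0.

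Targets of serum response factor (SRF), which also responds to actin tension, were measured for 20 of 25 genes, 19 of them on all arrays. This list, like the others, was chosen with earlier results of these data known. Nothing is therefore read from its counts or unadjusted p-values. At 0 h, 3 of 20 were higher by 1.5-fold with rest-inserted flow (Acta1, Tagln and Fhl1), against 3% of all named probes, and 3 with continuous flow (Acta1, Tagln and Srf), against 3.38%, while 0 were lower. With an offset of 16 in place of the floor of 10 the count for rest-inserted flow was 0. The median log2 ratio was 0.14 with rest-inserted flow and 0.15 with continuous flow, against 0 over all named probes. Acta1, skeletal muscle actin, had 0.64 and 1.02, and Tagln, an actin-binding protein of smooth muscle, 0.62 and 0.73. Srf itself had 0.39 and 0.82, and Fhl1, a LIM domain protein, 0.61 and 0.28. Fhl1 was dim, its 0 h signal being 19.1 in the controls and 29.2 after the rest-inserted regimen. In the controls it was 0.88 higher at 1 h than at 0 h on the log2 scale, more than either ratio. Its 1 h ratios were -0.16 (rest-inserted) and -0.07 (continuous). At 1 h Acta1 was the 1 gene past 1.5-fold, at 0.70 with rest-inserted flow and 0.91 with continuous flow. Of all named probes, 3.18% and 3.35% were higher by 1.5-fold. Acta1 was dim, at 24.6 without flow at 1 h, and without flow it was 0.49 lower at 1 h than at 0 h on the log2 scale. With the offset the count for rest-inserted flow at 1 h was 0. Srf had 0.11 and -0.10 at 1 h. The 1 SRF list gene lower by 1.5-fold with rest-inserted than with continuous flow, Mrtfb at 1 h, was detected on 1 array and is named after its value was seen. Of all named probes, 2.88% were lower in that comparison. Limma called 0 genes of the Hippo, CCN family, receptor and SRF lists in each contrast, and 1 of them, Acta1 with continuous flow, when the prior followed the intensity. An unadjusted p under 0.05 was reached by 4 of 20 SRF list genes for rest-inserted flow, 3 for continuous flow and 2 for rest-inserted over continuous flow. It was also reached by 1 of 7 receptors for rest-inserted flow, by 1 of 22 Hippo genes for rest-inserted over continuous flow, and by 0 otherwise. Of all named probes, 5.39% reached it for rest-inserted flow, 6.1% for continuous flow and 4.74% for rest-inserted over continuous flow.

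The genes whose profile over the 6 arrays was most like those of the 3 genes included the early response genes Dusp1, Jun and Egr3. Pearson's r with the brightest probe of each of the 3 genes was used. It was taken over the 105 probes detected on all arrays that spanned at least 1 log2 unit. Each other gene is given by its probe with the highest r, and r describes 6 arrays whose flow conditions the genes share. Ccn1 and Ankrd1 were close to each other (r = 0.983), and Ccn2 was less close to Ankrd1 (0.880) and to Ccn1 (0.822). Nearest to Ankrd1 were Dusp1, a MAP kinase phosphatase (0.998), Irak2, a kinase of interleukin-1 signaling (0.994), Nppb, the B-type natriuretic peptide (0.989), and the transcription factors Jun (0.986) and Egr3 (0.976). Nearest to Ccn1 were Irak2 (0.981), Dusp1 (0.976), Lmcd1, a LIM domain protein (0.971), Nppb (0.967) and Col6a1, a chain of type VI collagen (0.954). Nearest to Ccn2 were Klf2, a transcription factor known from endothelium under flow (0.973), Anxa6, a calcium-dependent membrane-binding annexin (0.972), Dusp8, a phosphatase of stress kinases (0.951), Egr3 (0.941) and Jun (0.940). Of the probes used for these genes, that of Col6a1 was the dimmest, at a mean log2 signal of 4.81. Those of Dusp8 at 5.29, Nppb at 5.74, Anxa6 at 5.89 and Egr3 at 5.91 came next. Klf2 had log2 ratios of 0.36 with rest-inserted flow and 0.24 with continuous flow at 1 h, and of 1.04 and 1.54 at 0 h, so that it stayed above no flow on all 4 flow arrays, as Ccn2 did. Dusp1 had -0.21 and -0.10 at 1 h and 0.56 and 1.08 at 0 h, and so lay on the same side of no flow as Ankrd1 and Ccn1 at each time point.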

How the data were processed

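The deposited intensity values are probe signals of the arrays from which the authors subtracted background in GenomeStudio, without normalization between arrays. The deposited detection p-value compares each probe with the negative controls. For the deposited log2 values the authors had applied quantile normalization, a floor of 10 and a filter that kept probes with a detection p under 0.01 on 1 array or more. Repeating this on the intensities gave the same log2 values to within 5e-08. One deposited detection column, that of rest-inserted flow at 1 h, holds p for 20000 probes and the signal once more for 25281, for which detection was taken from the signal at which detection began among the first (17.8243 to 17.8357, 2 of the affected probes between). The 3 genes lie among the probes with p. No sample was left out, and the precision is limited by the number of arrays.

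Of 45281 probes, 15686 (34.6%) passed. Of these 13393 had 1 symbol in the platform table, 8 several and 2285 none, and 211 with RIKEN names were dropped, which left 13182, of which 13174 were found in the RefSeq gene table by Entrez identifier (0 symbols changed). The brightest probe stood for a gene in counts and lists. Differences are log2 values of single arrays subtracted. limma 3.58.1 in R 4.3.3 was fitted on flow and time point with a constant variance prior and tested on simulated data. Other steps used pandas 2.3.3 and matplotlib 3.10.9. From each list, up to 4 genes detected on all arrays with the largest absolute mean log2 ratio at 0 h are named, with Yap1, Wwtr1, the TEAD genes and Lats2 where measured, and the 5 genes most correlated with each of the 3 genes. The genes and the lists were chosen with earlier results of these data known. Alternatives were median scaling, no normalization, an offset of 16 in place of the floor, the mean of all probes of a gene, the deposited values, 2-fold, a filter on detection on all arrays, other limma models, and each array left out.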

Additional observations from a re-analysis of the deposited data

Results flagged for a closer look

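For Ccn1 and Ankrd1 the flow/no flow ratio had opposite signs at 1 h and at 0 h on every probe, with both kinds of flow. On the brightest probe of Ccn1 the log2 ratio at 1 h minus that at 0 h was -1.30 with rest-inserted flow and -1.33 with continuous flow. For Ankrd1 it was -0.96 with rest-inserted flow and -1.30 with continuous flow. Each ratio is of 1 array to 1 array, and the difference between the time points was not tested.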

How the results depend on the processing

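On the brightest probe, each flow and time difference of the 3 genes kept its direction under median scaling, without normalization, with an offset of 16, from the deposited log2 values and, as an alternative chosen after seeing the data, with no flow as the mean of both time points. With the mean of all probes of a gene in place of the brightest, rest-inserted over continuous flow at 1 h was 0.06 for Ccn1, against -0.20, and the other differences kept their direction. None moved by as much as 1 SD of the differences of all named probes. At 2-fold in place of 1.5-fold, the genes higher with rest-inserted flow at 0 h numbered 1 (Ccn2) in place of 3, and those lower with rest-inserted than with continuous flow at 0 h 0 in place of 1. In limma, 6 probes were called for continuous flow when the prior followed the intensity, against 0 with the constant prior, and leaving out each array in turn called 0 to 0 probes in every contrast, and 0 to 0 of the other YAP targets. Of the list counts, 32 moved under an alternative by more than 1.5 times, to 0, 1 or 2 genes. Within 1.5 times, SRF targets higher at 0 h numbered 4 in place of 3 with continuous flow without normalization and 2 in place of 3 with rest-inserted flow with median scaling. YAP targets higher at 0 h numbered 1 with each kind of flow without normalization, and SRF targets higher with continuous flow at 1 h then numbered 2. CCN receptors lower with rest-inserted than with continuous flow at 0 h numbered 1 with median scaling and without normalization. SRF targets higher at 0 h numbered 0 with rest-inserted flow and 1 with continuous flow at 2-fold, and 0 with rest-inserted flow with the offset. The other counts that moved, each of 1 gene, became 0 with the offset, at 2-fold or on probes detected on all arrays. The causes were not tested, apart from the dim genes that the last filter removes. The fit without the filter on detection was not run, since gene names were held only for probes past it. No paired analysis was possible because each condition has 1 array, so replicate numbers pair nothing. The limma fit compares arrays within the time point, which is a term in it, and without that term it called 0 probes in every contrast. With 1 array of pooled RNA per condition, the depth of the design limits every value to a description of these arrays.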
